A study of Mus musculus with 12 samples.

Results

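The genes described here are the homeostatic chemokines Ccl21a, Ccl19, Cxcl13 and Cxcl12 and the receptors Ccr7, Cxcr5 and Cxcr4. They were chosen by symbol, with earlier results of these data known and by no measured threshold, and are 7 of the 32285 genes counted in each library. In the mouse lymph node, CCL21 and CCL19 both bind CCR7 and guide T cells and mature dendritic cells into and through the T cell zone. CXCL13, made by follicular stroma, attracts CXCR5-bearing B cells and follicular helper T cells, and CXCL12 acts through CXCR4 on lymphocytes, myeloid cells and endothelium. Fibroblastic reticular cells, follicular dendritic cells, high endothelial venules (HEVs, the vessels through which lymphocytes enter) and lymphatic endothelium are the known sources of these ligands in the organ.

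The study sequenced single cells from lymph nodes of C57BL/6 mice aged 7 to 10 weeks, in 12 droplet libraries. All mice carried floxed Atg12, a gene of autophagosome formation, and were labelled either ATG12 fl/fl x CDH5 CreER positive or the same with CreER negative. The Cdh5 promoter directs this tamoxifen-dependent Cre to endothelium, and mice of both labels received tamoxifen 5 times. Contact inflammation was evoked with 4% oxazolone on the abdominal skin with lymph nodes collected on day 3 or on day 7, while vehicle mice received acetone and olive oil alone. Each cell suspension was separated with CD45 microbeads and sorted, which gave a CD31 library of endothelial cells and a CD45 library of immune cells for every combination of Cre label and treatment. Each combination is thus 1 library per fraction, and the labels do not say how many mice a library holds. Counting intervals given below for single libraries are 95% intervals that cover counting error only.

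After filtering, 89054 cells remained, 46508 in the CD31 and 42546 in the CD45 libraries, with 5698 to 10553 per library and a median of 3433 to 6193 UMIs (unique molecular identifiers, each a counted RNA molecule) per cell. The CD45 libraries also held 1125 to 1925 stromal cells each, or 15.8 to 26% of their cells, although Ptprc, which encodes CD45, stood at only 16.4 to 23 CPM (UMIs per 1000000 UMIs of the class in a library) in their fibroblast-like cells against 1004 to 1306 CPM in T-like cells. Reticular cells were therefore described from the CD45 libraries, since the CD31 libraries held 57 fibroblast-like cells in all. Atg12 was not lower under the Cre-positive label: in blood endothelial-like cells other than HEV-like and arterial-like cells it was 51.9, 49.2 and 54.7 CPM in the Cre-negative and 78.6, 66.2 and 68 CPM in the Cre-positive vehicle, day 3 and day 7 libraries. The difference there was 0.49 (SE 0.10, unadjusted p = 0.0019, adjusted p = 0.826). Where the counted reads lie relative to the deleted part was not examined, so Atg12 gives no check of the labels, and Cre-positive and Cre-negative below stand for the label alone. Free RNA made up an estimated 0.728 to 2.9% of the UMIs in cells, and its expected level is given beside low values. The share was measured in the B-like cells of each library and applied to every class. It was not measured in classes with more UMIs per cell, where it may differ. Pairs of libraries shared 7 to 31 cell barcodes, at most 0.38% of the smaller library.

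The genes lie on the GRCm38 (mm10) assembly at chr4:42772860-42773993 (Ccl21a, minus strand), chr4:42754525-42756577 (Ccl19, minus), chr5:95956951-95961068 (Cxcl13, plus), chr6:117168535-117181367 (Cxcl12, plus), chr11:99144196-99155077 (Ccr7, minus), chr9:44511787-44561877 (Cxcr5, minus) and chr1:128588199-128592293 (Cxcr4, minus). All 7 are annotated as protein-coding. Ccl21a stands in a cluster of near-identical copies, and the reading of its counts depends on what separates them. The coding sequences of Ccl21b, Gm10591, Gm13304 and Gm21541 differ from that of Ccl21a only at T84A and C194T, with positions counted from the first coding base. The stretch from coding base 74 to 204 (131 bases) is shown for 2 of these genes, with both differing bases in capitals, from the GRCm38 reference with GENCODE M21 annotation.
Ccl21a: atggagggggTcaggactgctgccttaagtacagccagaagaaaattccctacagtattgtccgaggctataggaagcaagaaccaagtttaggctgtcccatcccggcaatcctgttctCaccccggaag
Ccl21b: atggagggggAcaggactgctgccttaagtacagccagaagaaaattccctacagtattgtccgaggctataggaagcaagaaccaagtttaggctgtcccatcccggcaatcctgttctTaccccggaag
The 9 annotated copy rows of Ccl21a together held 147 UMIs against 435135 for Ccl21a, or 0.0338% of it, and the single copy row of Ccl19 held 0 UMIs against 195241. How reads that match several copies were treated is not given in the sources used here, so the Ccl21a values are those of reads that were assigned to its own row.

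Promoters are shown for the 3 ligands whose level differed between day 3 and vehicle in stromal cells. Each is the 250 bases before the RefSeq start of the gene (GRCm38.p6), and capitals mark the motif where it was found. The motif, GGGNNNNNCC searched on both strands, is a loose form of the κB site bound by NF-κB dimers and was chosen with the sequences in view.
Cxcl13 promoter, chr5:95956689-95956938, plus strand: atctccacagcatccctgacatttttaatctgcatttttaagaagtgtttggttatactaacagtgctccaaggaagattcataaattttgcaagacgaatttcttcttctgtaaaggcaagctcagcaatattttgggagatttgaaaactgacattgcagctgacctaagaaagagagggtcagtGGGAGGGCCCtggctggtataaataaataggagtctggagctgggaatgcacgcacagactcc
Cxcl12 promoter, chr6:117168285-117168534, plus strand: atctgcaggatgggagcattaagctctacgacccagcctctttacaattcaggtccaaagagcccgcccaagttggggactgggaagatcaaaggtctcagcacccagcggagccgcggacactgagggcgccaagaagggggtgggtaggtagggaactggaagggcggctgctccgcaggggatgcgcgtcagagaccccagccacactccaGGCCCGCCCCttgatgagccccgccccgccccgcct
Ccl21a promoter, chr4:42773992-42774241, minus strand: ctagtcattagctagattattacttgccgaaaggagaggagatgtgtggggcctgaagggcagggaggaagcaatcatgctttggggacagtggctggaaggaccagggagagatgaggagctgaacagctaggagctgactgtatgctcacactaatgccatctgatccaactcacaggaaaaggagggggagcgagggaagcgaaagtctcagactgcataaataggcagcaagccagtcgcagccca
The Cxcl13 window held GGGAGGGCCC from 63 to 54 bases before the start. In the Cxcl12 window GGCCCGCCCC, a match on the other strand, lay 36 to 27 bases before the start, and the letters were not in the Ccl21a window. GGGNNNNNCC occurred in 45.8% of 32817 RefSeq promoter windows of the same length. The Ccl19 window, not shown, also held a match, from 250 to 241 bases before the start, and Ccl19 was not called at day 3.

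By median level each ligand was highest in a stromal cluster of the CD45 libraries. For Cxcl12 the range of that cluster overlaps the range of a blood endothelial cluster of the CD31 libraries, which was the higher of them at day 3. Among immune classes of more than a few cells per library, Ccr7 was highest in dendritic-like cells and Cxcr5 and Cxcr4 in B-like cells. Cell classes were named from marker genes after clustering on variable genes that excluded all 7 members, so the members took no part in drawing the classes. The map of median levels by cell class shows this layout. Levels are compared between cells for the same gene and not between genes.

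**Figure D1:**
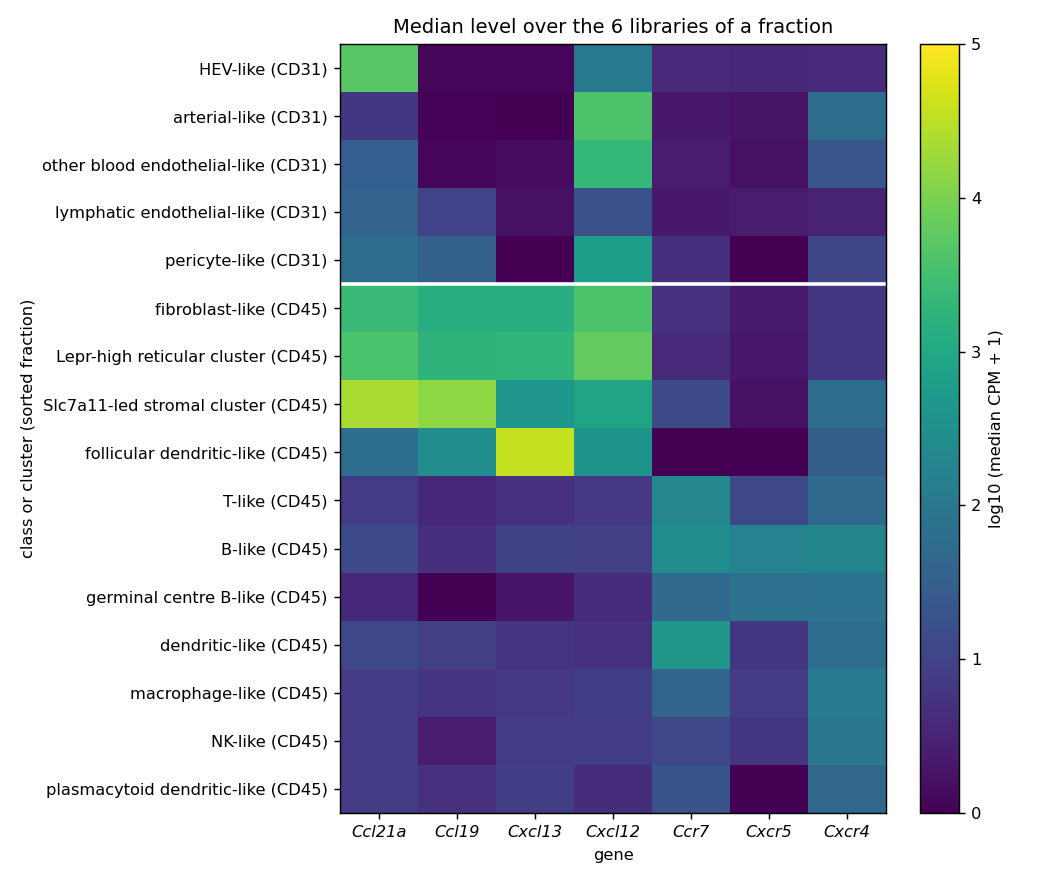
Median CPM of each of the 7 genes (columns) over the 6 libraries of a fraction in 16 cell classes (rows, fraction in brackets), coloured by log10(CPM + 1). Ccl21a stands highest in the Slc7a11-led stromal cluster and in HEV-like cells, Cxcl13 in follicular dendritic-like cells at a median of 36468 CPM, and Ccr7 in dendritic-like cells.

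Ccl21a is the CCL21 gene known for its expression in lymphoid tissue, and in the CD31 libraries it belonged almost wholly to HEV-like cells. In these 290 to 707 cells per library it was 6295 CPM in the Cre-negative and 5407 CPM in the Cre-positive vehicle library, 4565 and 3433 CPM at day 3, and 8112 and 4001 CPM at day 7 (the Cre-negative label comes first in every pair below). HEV-like cells held 84.6 to 97.3% of all Ccl21a UMIs in CD31 cells, and their lowest library was above the highest of cycling blood endothelial-like cells, the next class, at 134 to 1294 CPM. A Ccl21a UMI was found in 41.0 to 62.7% of HEV-like cells, or in 33.8 to 53.8% once each cell was thinned to 1000 UMIs.

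The Cre-positive library was the lower of each pair for Ccl21a in HEV-like cells. The log2 ratio of the Cre-positive to the Cre-negative library was -0.22 (counting interval -0.25 to -0.19) in vehicle, -0.41 (-0.44 to -0.38) at day 3 and -1.02 (-1.05 to -0.99) at day 7. Over the 3 pairs the fitted difference was -0.59 (SE 0.19) and did not pass the test (adjusted p = 0.889, unadjusted p = 0.0153), in a class where 0.0264% of genes were called for the Cre label. Without a filter on low counts the same comparison passed (adjusted p = 0.00303). It also passed without either vehicle library, at -0.79, and was -0.31 without either day 7 library. The number of HEV-like genes called for the Cre label was 3 in the main fit and 1 to 145 over other settings that kept all libraries. Day 3 differed from vehicle by -0.57 (SE 0.23, adjusted p = 0.188), which passed without a filter on low counts (-0.55, adjusted p = 0.0156) and without the Cre-negative vehicle library (-0.84, adjusted p = 0.0197), and 1.35% of genes tested in HEV-like cells were called at day 3. The 10 stress and dissociation genes, 3 of them called lower at day 3, summed to 8867 and 7862 CPM in vehicle, 5923 and 5115 CPM at day 3, and 8350 and 5946 CPM at day 7. The summed level of 7 HEV markers, led by Glycam1, was itself uneven, at 26469 and 21996 CPM in vehicle, 26594 and 14089 CPM at day 3 and 79024 and 15021 CPM at day 7, and was also lower in the Cre-positive library of each pair. The part of either sum in the Ccl21a values was not tested.

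CCL21 serves the entry of dendritic cells at lymphatic endothelium. In these libraries lymphatic endothelial-like cells gave low values for the Ccl21a row, which need not hold reads that match several copies. Their levels were 168 and 27.7 CPM in vehicle, 35.9 and 182 CPM at day 3, and 24.1 and 38.8 CPM at day 7, and 2.67 to 5.36% of cells held a UMI. The high libraries were thus the Cre-negative vehicle and the Cre-positive day 3 library, which share neither label nor treatment. The same libraries were highest for Ptprc in this class, at 22.1 and 16.5 CPM against 2.55 to 8.55 CPM, and for the sum of 6 B cell markers, at 34.6 and 24.1 CPM against 6.37 to 21.2 CPM. The sum of 6 T cell markers was highest in the first, at 113 CPM, but 47.5 CPM in the second against 45.8 to 68.5 CPM in the others. The sum of 7 HEV markers was 2752 and 4360 CPM in these libraries against 2595 to 4833 CPM in the others. That of 7 fibroblast markers was 123 and 131 CPM against 61.3 to 176 CPM. The part of RNA from other cells in the Ccl21a values was not tested. Free RNA at the share found in B-like cells would give 14.7 and 17.5 CPM in vehicle, 12.5 and 11.6 CPM at day 3, and 42.9 and 5.27 CPM at day 7. Only the Cre-negative day 7 library was below this value. Lymphatic endothelial-like cells held more UMIs, with library medians of 6458 to 8371 against 2930 to 3659 in B-like cells, and the share in them was not measured. In the Ackr4-high cluster, which has the marker of ceiling lymphatics, the same 2 libraries were highest, at 218 and 295 CPM, with the others between 36.1 and 61.8 CPM.

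In the CD45 libraries Ccl21a and Ccl19 shared a source, a small cluster led by Slc7a11. It held 21 to 117 cells per library, with 4 of 5 pericyte and 3 of 4 follicular dendritic markers above the other cells, and was left without a cell type name. Ccl21a there was 21928 and 26894 CPM in vehicle, 13532 and 10918 CPM at day 3, and 24281 and 30781 CPM at day 7. Both day 3 libraries were below all 4 others. Ccl21a fell by 1.0 on the log2 scale at day 3 (SE 0.14, adjusted p = 0.00666), while 0.589% of all genes tested in the cluster were called. Leaving out either day 3 library ended the call, with -1.32 (adjusted p = 0.152) without the Cre-negative and -0.71 (adjusted p = 0.56) without the Cre-positive library. These few cells carried 12.1 to 46.4% of all Ccl21a UMIs in CD45 cells.

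The stress and dissociation genes moved in the same direction in this cluster. The sum of the 10 listed genes, among them Fos, Jun and Hspa1a, was 7823 and 10267 CPM in vehicle, 2709 and 5035 CPM at day 3, and 8556 and 9116 CPM at day 7. Of the 10 genes 5 fell at day 3, with a median of -1.31 against 0.00 over all genes tested. The HEV marker sum, largely Glycam1, was 149 and 519 CPM in vehicle, 1212 and 475 CPM at day 3, and 161 and 63.7 CPM at day 7. The sum of 5 pericyte markers was 3875 and 2663 CPM at day 3 against 1681 to 2333 CPM in the other libraries, and that of 7 fibroblast markers 5945 and 6699 CPM against 4374 to 5228 CPM. The part of any of these in the Ccl21a difference was not tested.

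The main body of reticular cells was a cluster high in Lepr, with 537 to 1218 cells per library and all 7 fibroblast markers above the other cells. Together with an Apod-led and an adventitial fibroblast-like cluster it formed the fibroblast-like class. The Lepr-high cells held 52.9 to 85% of the Ccl21a UMIs in CD45 cells, at 4289 and 3010 CPM in vehicle, 3344 and 1708 CPM at day 3, and 4824 and 5509 CPM at day 7. The vehicle and day 3 libraries overlap, and the day 3 difference of -0.49 did not pass (adjusted p = 0.309). Both day 7 libraries were above all vehicle and day 3 libraries. Over the whole fibroblast-like class the Ccl21a level was 1702 and 1824 CPM in vehicle, 2796 and 1449 CPM at day 3, and 3792 and 3697 CPM at day 7. The 2 day 7 libraries lay above the other 4, with a day 7 difference of 1.07 (SE 0.30) that did not pass with edgeR (adjusted p = 0.369) and passed with DESeq2 (adjusted p = 0.0254). Lepr-high cells, the Ccl21a-rich part of the class, made up 41.6 and 62% of it in vehicle, 76.1 and 80.6% at day 3, and 77.9 and 66.4% at day 7. Within them alone the day 7 difference was 0.56 (SE 0.30, adjusted p = 1).

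**Figure D2:**
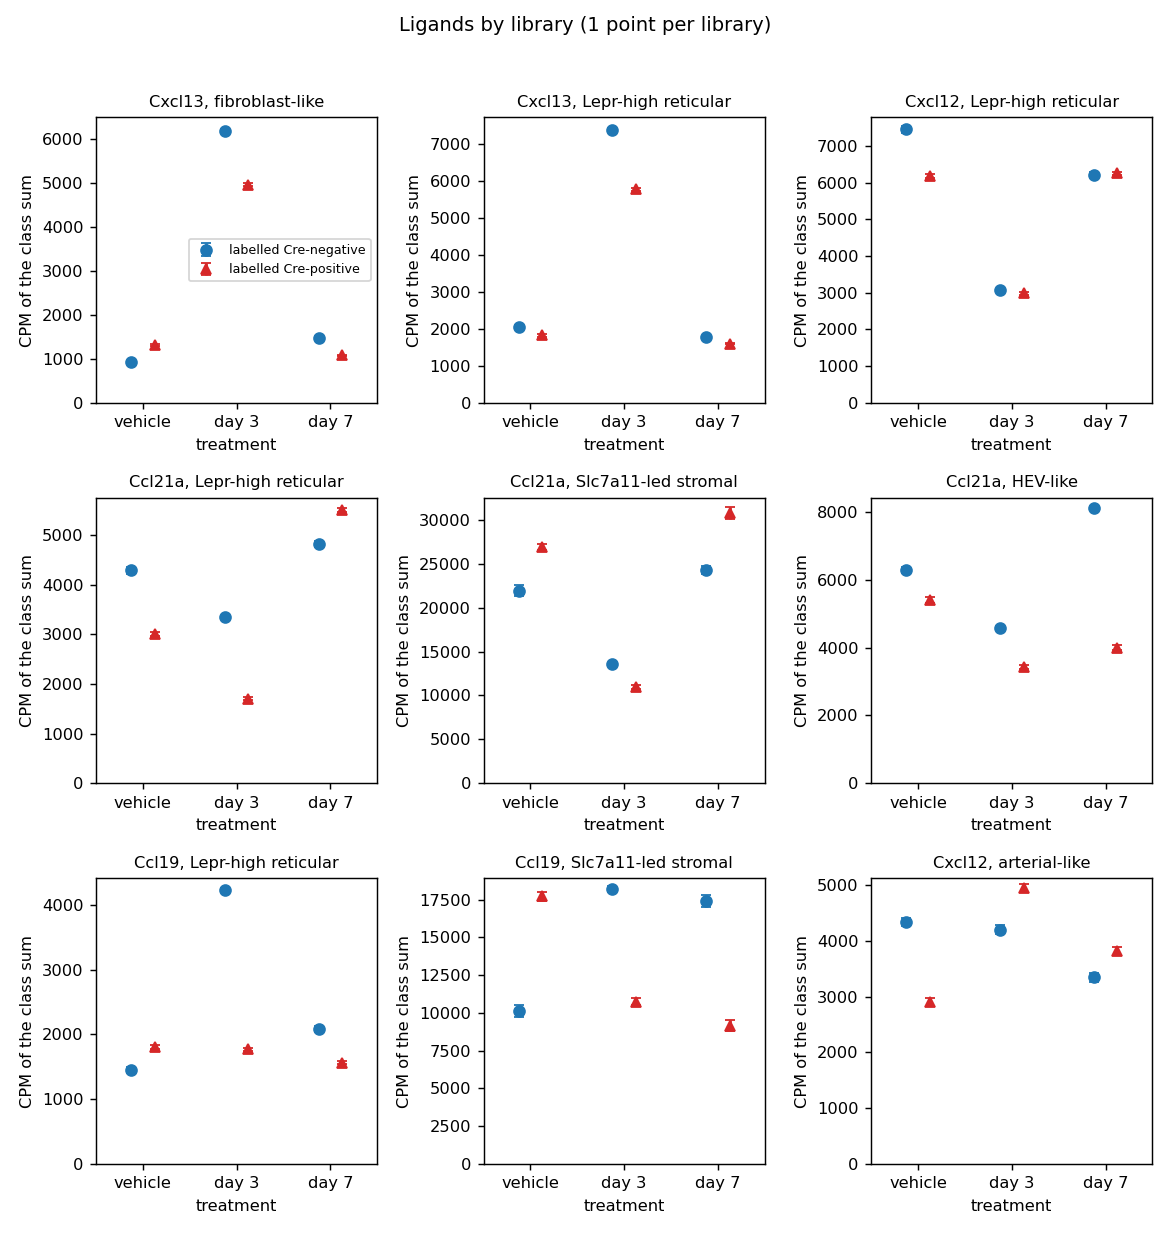
CPM of the 4 chemokines in 9 combinations of gene and source class (panels), 1 point per library with its 95% Poisson interval, ordered by treatment and coloured by Cre label. Cxcl13 in fibroblast-like and Lepr-high cells is highest in both day 3 libraries, at 6178 and 4956 CPM in the fibroblast-like class, and Ccl21a in HEV-like cells is lower in the Cre-positive library of each pair.

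Ccl19, the second CCR7 ligand, is not tethered to matrix in the way CCL21 is. In the Slc7a11-led cluster it was 10119 and 17716 CPM in vehicle, 18206 and 10751 CPM at day 3, and 17407 and 9157 CPM at day 7, with neither treatment nor label setting the libraries apart. In Lepr-high cells it was 1450 and 1806 CPM in vehicle, 4233 and 1770 CPM at day 3, and 2082 and 1565 CPM at day 7. The Cre-negative day 3 library alone stood above the rest. The fibroblast-like class had the same high library, at 3567 CPM, with the other 5 between 605 and 1670 CPM. The day 3 difference did not pass in either population, at 1.46 (SE 0.50, adjusted p = 0.0988) in the class and 0.82 (SE 0.37, adjusted p = 0.194) in Lepr-high cells. The class difference rested on single libraries: it passed at 2.49 (adjusted p = 0.00197) without the Cre-positive vehicle library, at 1.52 without either day 7 library (adjusted p = 0.0317 and 0.0165) and at 1.49 without a filter on low counts (adjusted p = 0.00654), and was 0.58 (adjusted p = 0.265) without the Cre-negative vehicle and 0.76 (adjusted p = 0.591) without the Cre-negative day 3 library. In Lepr-high cells it passed at 1.47 (adjusted p = 0.0492) without the Cre-positive vehicle library and at 0.86 (adjusted p = 0.0449) without a filter on low counts.

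Dendritic cells are a textbook source of CCL19, and dendritic-like cells of the CD45 libraries held little of it. Ccl19 there was 2.31 and 10.7 CPM in vehicle, 16.1 and 4.31 CPM at day 3, and 7.96 and 7.69 CPM at day 7. Free RNA at the share found in B-like cells would give 1.71 and 5.29 CPM in vehicle, 38.4 and 9.17 CPM at day 3, and 4.86 and 4.73 CPM at day 7. The level was above this in 4 of 6 libraries and below it in both day 3 libraries. Dendritic-like cells held more UMIs, with library medians of 7024 to 12149 against 2505 to 4274 in B-like cells. The share in them was not measured, so the day 3 levels are not shown to be below free RNA. The mean level was 2.06 CPM with free RNA subtracted and 53.9 CPM with likely doublets kept. Among CD31 cells the Madcam1-high lymphatic cluster, with the marker of floor lymphatics, had a low level above the free RNA expectation of 0.111 to 0.434 CPM. It was 17.5 and 22.1 CPM in vehicle, 28.1 and 38.5 CPM at day 3, and 27.9 and 21.2 CPM at day 7. The Ackr4-high and Marco-high lymphatic clusters reached at most 2.37 and 2.75 CPM.

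Cxcl13, the B cell follicle chemokine, was highest in follicular dendritic-like cells and changed in the reticular cells. Follicular dendritic-like cells numbered 12 to 64 per library, too few in some libraries for a test. Their level was 31378 and 46956 CPM in vehicle, 45895 and 21201 CPM at day 3, and 41558 and 26145 CPM at day 7, and every one of these cells held a Cxcl13 UMI. In the fibroblast-like class Cxcl13 was 936 and 1319 CPM in vehicle, 6178 and 4956 CPM at day 3, and 1478 and 1081 CPM at day 7. Both day 3 libraries were above all others and the day 7 libraries lay within or near the vehicle range.

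Cxcl13 rose at day 3 in the fibroblast-like class by 2.31 on the log2 scale (SE 0.30, adjusted p = 0.00843). In this class 11.7% of 14708 genes were called at day 3, 6% higher and 5.68% lower, so a called gene was common there. Without the Cre-negative day 3 library the difference was 2.11 (adjusted p = 0.174) and without the Cre-positive one 2.56 (adjusted p = 0.0738), each of which leaves a single day 3 library. In the same class the sum of 5 pericyte markers was 2312 and 1684 CPM at day 3 against 464 to 933 CPM in the other libraries, and that of 4 follicular dendritic markers 2991 and 2428 CPM against 1036 to 2079 CPM. The Lepr-high share of the class was also higher at day 3 than in vehicle, as given above, and the part of these in the call was not tested. The day 7 difference in the class was not called, with 0.218% of genes called at that time. In Lepr-high cells alone Cxcl13 was 2063 and 1823 CPM in vehicle, 7375 and 5770 CPM at day 3, and 1773 and 1602 CPM at day 7. There it rose by 1.82 (SE 0.22, adjusted p = 0.0133), with 5.18% of genes called, 3.34% higher and 1.84% lower. Leaving out the Cre-negative vehicle library gave 1.72 (adjusted p = 0.0517), the Cre-negative day 3 library 1.68 (adjusted p = 0.204) and the Cre-positive day 3 library 1.98 (adjusted p = 0.0715).

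The shares of Cxcl13 UMIs among the captured CD45 cells also differed at day 3. Lepr-high cells held 40.0 and 52.0% of the Cxcl13 UMIs in CD45 cells in vehicle, 91.4 and 92.7% at day 3, and 49.1 and 45.2% at day 7. Follicular dendritic-like cells held 52.3 and 37.1% in vehicle, 6.65 and 3.77% at day 3, and 46.9 and 52.0% at day 7. These shares also follow how many cells of each kind were captured, while the level within follicular dendritic-like cells at day 3 (45895 and 21201 CPM) overlapped that of the other libraries.

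At the level of single Lepr-high cells, thinned to 1000 UMIs each, both the share of Cxcl13-positive cells and the UMIs per positive cell were highest in the day 3 libraries. The share was 45.6 and 46.7% in vehicle, 68.7 and 65.3% at day 3, and 45.4 and 37.4% at day 7. A positive cell held 3.74 and 3.46 Cxcl13 UMIs on average in vehicle, 9.3 and 7.98 at day 3, and 3.54 and 3.51 at day 7. Unthinned, the share was 64.4 and 71.9% in vehicle, 88.8 and 87.1% at day 3, and 69.6 and 66.7% at day 7, with a median of 13150 and 14787 UMIs per cell at day 3 against 5548 to 8344.5 in the other libraries.

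Several other measures moved with the day 3 libraries in Lepr-high cells. The sum of 5 pericyte markers was 2379 and 1872 CPM at day 3 against 745 to 1068 CPM elsewhere. The sum of 4 follicular dendritic markers overlapped, at 3543 and 2822 CPM at day 3 against 1882 to 2954 CPM. The 7 fibroblast markers summed to 10941 and 16387 CPM at day 3 and to 19566 to 21651 CPM in the other 4 libraries. The 10 stress genes, none called, had a median day 3 difference of -1.17 against -0.02 over all genes tested. Their sum overlapped, at 1777 and 4530 CPM at day 3 against 4403 to 10780 CPM in the other libraries. Free RNA of the CD45 libraries also held more Cxcl13, at 1115 and 1264 CPM at day 3 against 323 to 698 CPM. Its expected level in cells was 22.8 and 16.5 CPM at day 3, beside the Lepr-high levels given above. With free RNA subtracted Cxcl13 was still called at day 3 in the fibroblast-like class. The part of the marker and stress sums in the day 3 differences was not tested.

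The B-like cells gave a further call for Cxcl13, at 15.0 and 17.6 CPM at day 3 against 3.14 and 3.86 CPM in vehicle and 4.84 and 12.8 CPM at day 7. The difference was 2.21 (SE 0.31, adjusted p = 0.0338), in a class with 0.18% of genes called. The expected free RNA level in the same libraries was 22.8 and 16.5 CPM at day 3, 2.56 and 3.12 CPM in vehicle, and 2.5 and 7.39 CPM at day 7. The B-like level was below it in the Cre-negative day 3 library and above it in the other 5. With free RNA subtracted the day 3 difference was -0.47 (adjusted p = 0.903). Cxcl13 was also called in the Cd4-high part of the T-like cells (2.24, SE 0.39, adjusted p = 0.0493, with 0.0612% of genes called), which were not fitted under other settings. Its level there was 2.17 and 2.81 CPM in vehicle, 10.9 and 13.4 CPM at day 3, and 2.75 and 5.68 CPM at day 7, under the expected free RNA level in 5 of 6 libraries.

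**Figure D3:**
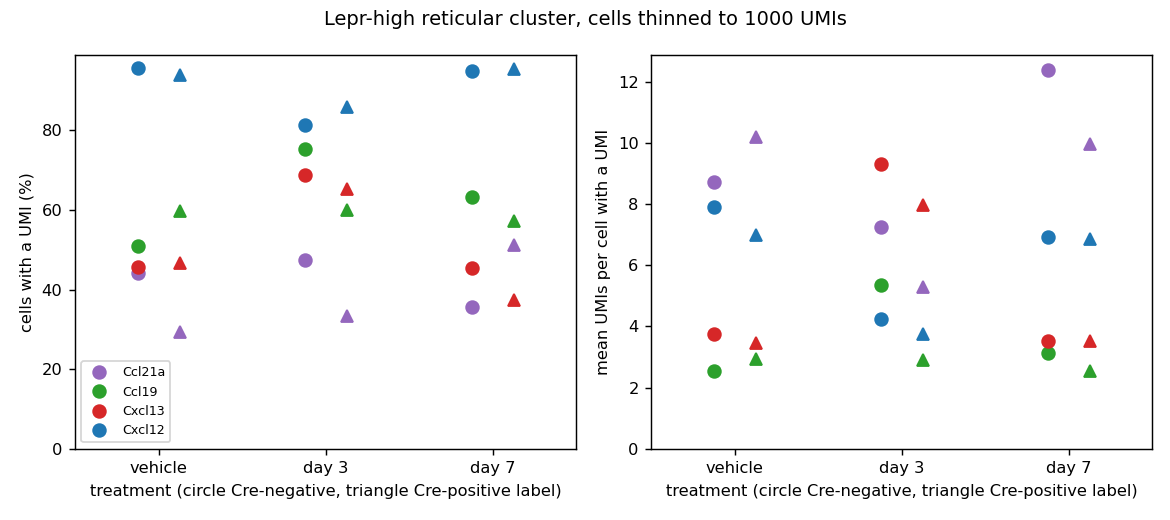
Share of Lepr-high reticular cells with at least 1 UMI and mean UMIs per positive cell for 4 chemokines in each CD45 library, every cell thinned to 1000 UMIs. For Cxcl13 both measures are highest in the day 3 libraries, and for Cxcl12 both are lowest there.

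Cxcl12, the ligand that retains CXCR4-bearing cells, moved the other way in the same cells. In Lepr-high cells it was 7448 and 6173 CPM in vehicle, 3081 and 2980 CPM at day 3, and 6203 and 6252 CPM at day 7. Both day 3 libraries were below all others, and Cxcl12 fell by 1.10 on the log2 scale at day 3 (SE 0.22, adjusted p = 0.0353). Keeping likely doublets ended the call (-1.06, adjusted p = 0.054), and so did leaving out the Cre-negative vehicle (-1.03, adjusted p = 0.157), the Cre-positive vehicle (-1.17, adjusted p = 0.0553), the Cre-negative day 3 (-1.10, adjusted p = 0.388) or the Cre-positive day 3 library (-1.07, adjusted p = 0.101). Cells with a Cxcl12 UMI after thinning made up 95.7 and 94% in vehicle, 81.3 and 85.8% at day 3, and 94.9 and 95.4% at day 7. A positive cell held 7.91 and 6.98 UMIs in vehicle, 4.25 and 3.74 at day 3, and 6.93 and 6.86 at day 7.

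Over the fibroblast-like class as a whole the day 3 difference in Cxcl12 was not called. The level there was 3677 and 4173 CPM in vehicle, 2716 and 2688 CPM at day 3, and 5291 and 4787 CPM at day 7. The day 3 difference was -0.52 (SE 0.21, adjusted p = 0.146). The day 3 libraries were again the lowest and did not overlap the others, while Apod-led cells, in which Cxcl12 was lower at 1003 to 2384 CPM, were 44 and 23.7% of the class in vehicle and 19.8 and 15.1% at day 3.

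**Figure D4:**
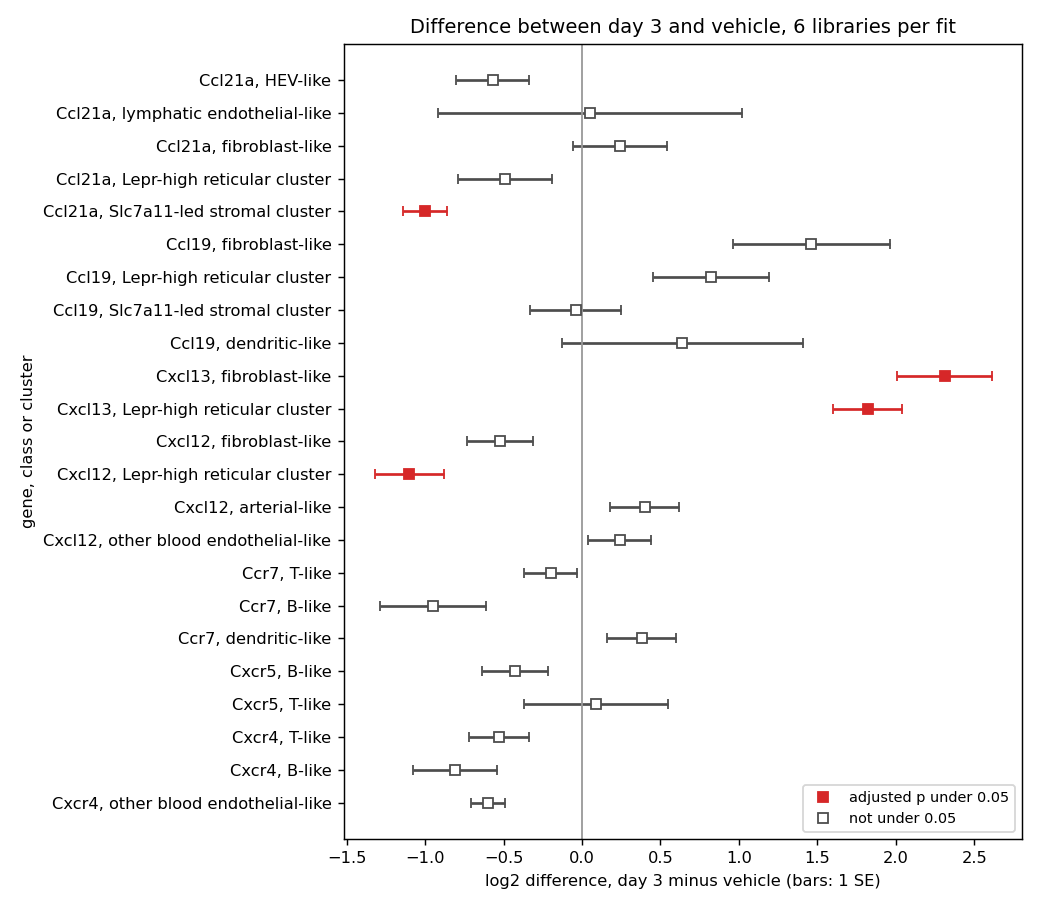
Day 3 minus vehicle log2 differences with 1 SE for 23 combinations of gene and cell class, filled red where the adjusted p was under 0.05. Filled points are Cxcl13 in fibroblast-like and Lepr-high cells (2.31 and 1.82), Cxcl12 in Lepr-high cells (-1.10) and Ccl21a in the Slc7a11-led cluster (-1.0).

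Endothelial Cxcl12 differed between vessel types. Arterial-like cells had 4342 and 2902 CPM in vehicle, 4205 and 4951 CPM at day 3, and 3348 and 3815 CPM at day 7. The Penk-led blood endothelial cluster was above them in 6 of 6 libraries, at 4874 and 5527 CPM in vehicle, 5505 and 5914 CPM at day 3, and 5512 and 4631 CPM at day 7, though the ranges overlap. Other blood endothelial-like cells, a class of which the Penk-led cluster is 10.7 to 20.2%, were at 1905 to 2561 CPM, below arterial-like cells in 6 of 6 libraries with no overlap of the ranges. HEV-like cells were far lower, at 128 and 118 CPM in vehicle, 59.3 and 112 CPM at day 3, and 110 and 173 CPM at day 7, with 4.6 to 12.7 CPM expected from free RNA. At day 3 the differences were 0.40 in arterial-like cells (SE 0.22, adjusted p = 0.369) and -0.59 in HEV-like cells (SE 0.22, adjusted p = 0.16), and neither passed. Without the Cre-negative vehicle library the arterial-like difference was 0.83 (adjusted p = 0.000123). That in HEV-like cells was -0.99 (adjusted p = 0.0255) without the Cre-positive vehicle library and -0.57 (adjusted p = 0.0146) without a filter on low counts.

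Within Lepr-high cells the chemokines were found together to different degrees. Ccl21a and Ccl19 were detected in the same thinned cell 1.21 to 1.34 times as often as the product of their shares, over the 6 libraries. For Ccl21a with Cxcl13 the ratio was 0.856 to 1.02 and for Cxcl12 with Cxcl13 0.995 to 1.01. Cxcl12 was found in 81.3 to 95.7% of the cells, and so high a share leaves its ratio little room above 1. The Cxcl12 ratio therefore cannot be set against the others. After thinning, Ccl21a was found in 29.4 to 51.1% of the cells and Ccl19 in 51 to 75.4%.

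Ccr7, the receptor for both T zone ligands, was highest in mature migratory dendritic-like cells. In the CD45 libraries it was 646 and 702 CPM there in vehicle, 588 and 1037 CPM at day 3, and 685 and 827 CPM at day 7, and the cells that reached the CD31 libraries gave 616 and 692, 610 and 928, and 764 and 659 CPM. Their lowest library was above the highest of the B-like cells. In the wider dendritic-like class the Ccr7 level was 400 and 436 CPM in vehicle, 354 and 792 CPM at day 3, and 430 and 558 CPM at day 7. The Cre-positive library was the higher of each pair, with a difference of 0.50 (SE 0.18) that did not pass (adjusted p = 0.206) except without a filter on low counts (adjusted p = 0.0325). Mature cells made up 88.5% of the class in the Cre-positive day 3 library and 76.6 to 78.7% in the others, and within them the difference was 0.33 (SE 0.16, adjusted p = 0.444). The stress and dissociation sum of the class was 1731 CPM in the Cre-negative and 4870 CPM in the Cre-positive day 3 library, against 3278 to 3517 CPM in the others, and its part in the Ccr7 values was not tested.

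The Ccr7 ranges of B-like and T-like cells overlap, with B-like cells above T-like cells in 5 of 6 libraries. B-like cells had 281 and 362 CPM in vehicle, 97.1 and 249 CPM at day 3, and 363 and 236 CPM at day 7. T-like cells, which need CCR7 to enter and stay in the T zone, had 181 and 225 CPM in vehicle, 140 and 225 CPM at day 3, and 205 and 200 CPM at day 7. The Cre-negative day 3 library was the lowest in both. The B-like day 3 difference was -0.95 (SE 0.34, adjusted p = 0.433) and the T-like one -0.20 (adjusted p = 0.924). Germinal centre B-like cells ranged from 11.4 to 142 CPM and fibroblast-like cells from 1.91 to 6.79 CPM, close to the 1.32 to 2.29 CPM expected from free RNA.

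Cxcr5 directs B cells to CXCL13 and was highest in B-like cells, which held 73.6 to 91.2% of its UMIs in CD45 cells. The level was 153 and 215 CPM in vehicle, 93.8 and 185 CPM at day 3, and 168 and 153 CPM at day 7. Germinal centre B-like cells were below them in 6 of 6 libraries, at 71.2 and 38.4 CPM in vehicle, 67.4 and 89.4 CPM at day 3, and 85.1 and 79.2 CPM at day 7. They numbered only 6 to 244 per library, and the counting interval of the highest value, from 24 cells, was 66.8 to 117 CPM, which takes in the lowest B-like value. Among T-like cells the regulatory cluster was highest, with 36.0 and 17.3 CPM in vehicle, 22.2 and 30.2 CPM at day 3, and 11.4 and 47.6 CPM at day 7, above the 0.239 to 0.373 CPM expected from free RNA. The B-like difference was -0.43 at day 3 (SE 0.21, adjusted p = 0.544) and 0.37 for the Cre label (SE 0.17, adjusted p = 0.357).

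Cxcr4, the CXCL12 receptor, was found in lymphoid, myeloid and endothelial classes. In B-like cells it was 193 and 268 CPM in vehicle, 98.1 and 165 CPM at day 3, and 232 and 142 CPM at day 7, a range that overlaps that of macrophage-like cells at 75.2 to 164 CPM. Neutrophil-like cells, only 4 to 28 per CD45 library, had a higher median of 346 CPM, with 440 and 282 CPM in vehicle, 430 and 410 CPM at day 3, and 82.6 and 113 CPM at day 7. T-like cells had 52.5 and 61 CPM in vehicle, 32.0 and 49.7 CPM at day 3, and 48.5 and 41.0 CPM at day 7. The day 3 differences of -0.81 in B-like (SE 0.27, adjusted p = 0.392) and -0.53 in T-like cells (SE 0.19, adjusted p = 0.783) did not pass.

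The Cre-negative day 3 library was the lowest for all 3 receptors in B-like cells, in the CD45 and in the CD31 fraction alike. The CD31 one had 95.5 CPM of Ccr7, 98.9 of Cxcr5 and 95.8 of Cxcr4, against lowest values of 191, 116 and 136 CPM in the others. The CD45 one was also the lowest for Ccr7 and Cxcr5 in 4 of 5 and for Cxcr4 in 5 of 5 B-like clusters of the CD45 libraries, of which 1 held only 12 to 54 cells per library. Both fractions came from the same separated suspension and the clusters are parts of 1 library, so these low levels are not independent observations. The Cre-positive day 3 library did not share these levels, and the Ccr7 day 3 difference in B-like cells was -0.31 (adjusted p = 0.999) without the Cre-negative day 3 library and -1.79 (adjusted p = 0.0689) without the Cre-positive one. Leaving out the Cre-negative day 7 library instead made the B-like day 3 differences pass, at -1.03 for Ccr7, -0.46 for Cxcr5 and -0.83 for Cxcr4. Without a filter on low counts the day 3 differences of Ccr7 and Cxcr4 passed. With all libraries the Cre label differences were 0.28 for Ccr7 (SE 0.28, adjusted p = 0.67) and 0.10 for Cxcr4 (SE 0.22, adjusted p = 0.869). Without the Cre-negative day 7 library the Cre label differences passed, at 0.75 for Ccr7, 0.63 for Cxcr5 and 0.50 for Cxcr4. Those of Ccr7 and Cxcr4 turned direction without other single libraries. The day 7 minus vehicle differences of Ccr7 and Cxcr4 also passed without the Cre-negative day 7 library, with the Cre-positive library then the only one at day 7. Over other settings that kept all libraries, 0 to 374 genes of the B-like class were called at day 3 and 1 to 322 for the Cre label. Without the Cre-positive day 7 library the day 3 difference of Cxcr4 passed (-0.83, adjusted p = 0.0334).

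In blood vessels Cxcr4 marked arterial-like cells, with 44.1 and 67.7 CPM in vehicle, 49.8 and 57.1 CPM at day 3, and 60.2 and 59.4 CPM at day 7. Other blood endothelial-like cells had 29.8 and 28.3 CPM in vehicle, 19 and 18.1 CPM at day 3, and 21.1 and 20.2 CPM at day 7. Both vehicle libraries of this class were above the other 4. The difference was -0.60 at day 3 (SE 0.11, unadjusted p = 0.00146, adjusted p = 0.238) and -0.50 at day 7 (SE 0.11, adjusted p = 1), in a class where 0% of genes were called at either time. The clusters of this class were unevenly caught, with capillary-like cells at 20.3 to 66.1% and the Fosb-led cluster at 3.24 to 28.1% of it, and without the Fosb-led cluster the differences were -0.55 (adjusted p = 0.174) and -0.34 (adjusted p = 1). The stress and dissociation sum of the class was 5916 and 9414 CPM in vehicle, 4350 and 5622 CPM at day 3, and 7809 and 4212 CPM at day 7. Its part in the Cxcr4 values was not tested. HEV-like cells had 1.16 to 7.11 CPM of Cxcr4, beside 0.452 to 1.59 CPM expected from free RNA.

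**Figure D5:**
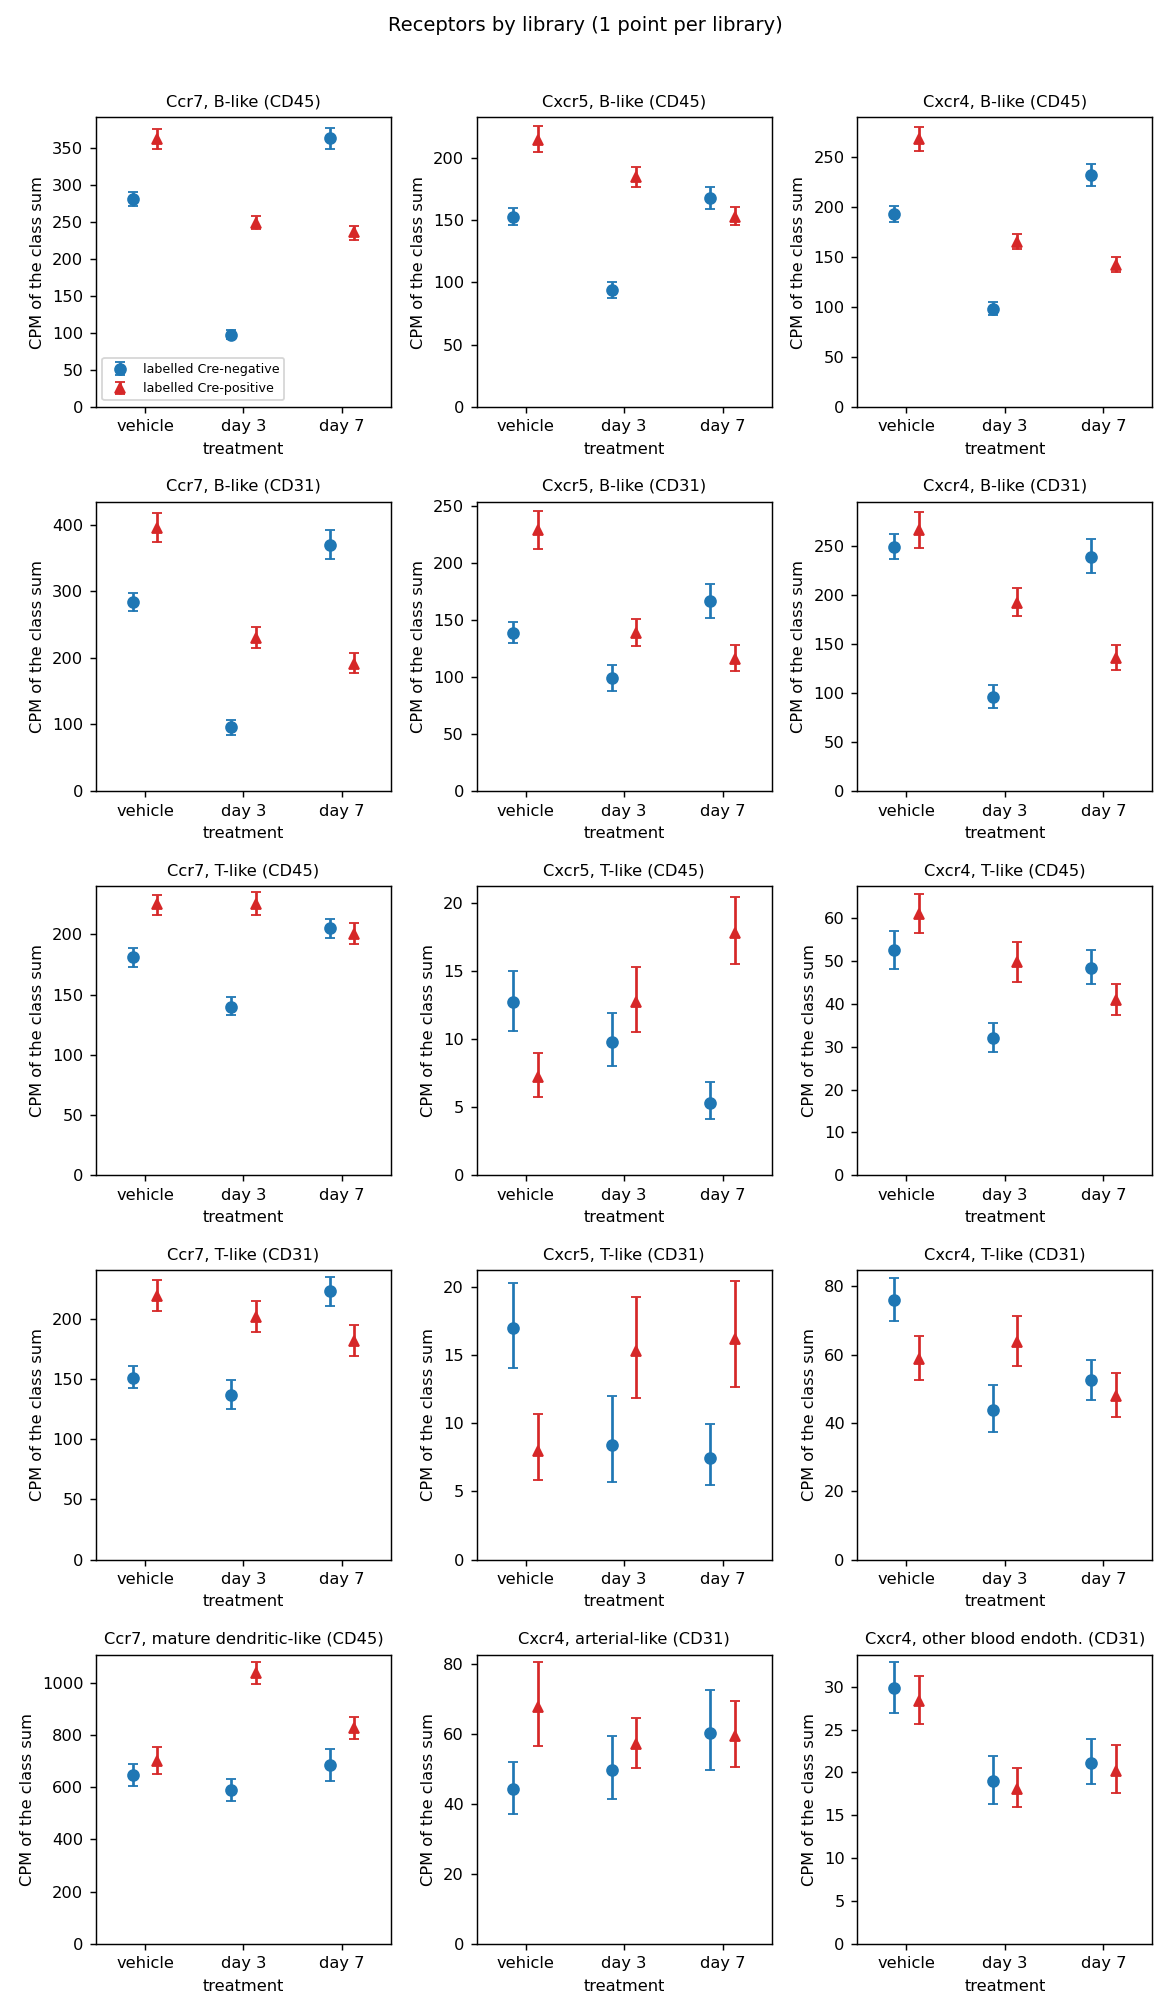
CPM of Ccr7, Cxcr5 and Cxcr4 in 15 combinations of gene and cell class (panels), 1 point per library with its 95% Poisson interval, ordered by treatment and coloured by Cre label. The Cre-negative day 3 library is the lowest for all 3 receptors in B-like cells, and Ccr7 in mature dendritic-like cells lies between 588 and 1037 CPM in the CD45 libraries.

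Of the 17 pairs of a member with a textbook source or receiver class, 1 was called at day 3 (Cxcl13 in fibroblast-like cells). Of all gene tests in the 8 classes, 2.26% were called at that time by the same adjusted threshold. At day 7 none was called by edgeR, with 0.0331% of all gene tests called, and 1 by DESeq2 (Ccl21a in fibroblast-like cells). For the Cre label none was called by edgeR, with 0.0217% of all gene tests called, nor by DESeq2 among the 13 pairs it gave an adjusted p. An unadjusted edgeR p under 0.05 was found for 8 pairs at day 3, 2 at day 7 and 2 for the Cre label. The share of all gene tests under that unadjusted limit was not computed, so these counts have no background beside them. By class the share of genes called for the Cre label was 0.0905% in T-like, 0.0222% in other blood endothelial-like, 0.0186% in arterial-like, 0.00857% in B-like and 0.00775% in lymphatic endothelial-like cells. The day 3 and day 7 comparisons use the same vehicle libraries.

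Partner genes of these chemokines and receptors were read from a list of 31: scavenging receptors, lymphotoxin and NF-κB inducers, processing enzymes, signalling genes and transcription factors. In the fibroblast-like class at day 3, 29 were tested, of which 1 rose and 4 fell, with a median difference of -0.03 against -0.02 over all genes, in a class where 11.7% of all genes were called. Ackr3, which scavenges CXCL12, fell by 2.24 (adjusted p = 0.00678), from 143 and 295 CPM in vehicle to 41.6 and 43.4 CPM, with 42.9 and 72 CPM at day 7. Dpp4, which truncates CXCL12, fell by 2.90 (adjusted p = 0.00275), from 165 and 167 CPM to 16.3 and 28.7 CPM, and was still lower at day 7 by -1.94 (adjusted p = 0.0374). In Lepr-high cells Ackr3 and Dpp4 averaged only 10.7 and 1.36 CPM. The adventitial fibroblast-like share of the class was 14.4 and 14.2% in vehicle and 3.33 to 4.47% after oxazolone, and its part in the 2 differences was not tested.

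The transcription factor genes Foxo1 and Klf2 also fell in the fibroblast-like class, by 1.12 (adjusted p = 0.00944) and 1.68 (adjusted p = 0.0479). Foxo1 was 78.8 and 105 CPM in vehicle, 34.7 and 48.9 CPM at day 3, and 71.2 and 82.2 CPM at day 7. Klf2 was 301 and 520 CPM in vehicle, 85.8 and 169 CPM at day 3, and 370 and 210 CPM at day 7. The stress and dissociation sum of the class, with 2 of 10 genes called lower at day 3, was 6159 and 10971 CPM in vehicle, 2507 and 5041 CPM at day 3, and 9407 and 6351 CPM at day 7. The sum of 7 fibroblast markers was 31984 and 23171 CPM in vehicle, 13768 and 19018 CPM at day 3, and 22064 and 29113 CPM at day 7, and the part of either in these differences was not tested. Foxo1 fell in Lepr-high cells as well, by 0.98 (adjusted p = 0.035), where 28 of the list were tested, none rose and 1 fell, with 5.18% of all genes called. Tnf, an inducer of these chemokines, rose by 1.83 (adjusted p = 0.04) at levels of only 0.744 to 3.57 CPM, for which no free RNA level was computed. Each of these list calls, like those for Rgs2 and Rgs16 below, ended when either day 3 library was left out. Klf2 and the arterial-like Rgs16 call also ended without the Cre-positive vehicle library, and Tnf and the Lepr-high Foxo1 call without either vehicle library. The directions held in all 6 such fits of each, with Ackr3 between -2.72 and -1.75 and Klf2 between -2.17 and -1.22.

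Rgs2 and Rgs16, regulators of G protein signalling that damp receptors of the chemokine receptor kind, were the list genes called at day 3 in 2 other populations. In arterial-like cells, with 24 of the list tested, 2 higher and none lower, Rgs2 was 24.3 and 19 CPM in vehicle, 47.8 and 55.3 CPM at day 3, and 21.9 and 28.4 CPM at day 7 (1.26, adjusted p = 0.00679). Rgs16 there was 22.5 and 22.7 CPM, 36.8 and 38.3 CPM, and 25.1 and 23.5 CPM (0.79, adjusted p = 0.0431). The share of genes called in arterial-like cells at day 3 was 2.56%. The 10 stress and dissociation genes of this class, 2 of them called lower at day 3, summed to 3165 and 4653 CPM in vehicle, 2514 and 2837 CPM at day 3, and 3542 and 2371 CPM at day 7, and their part in the Rgs values was not tested. In the Slc7a11-led cluster Rgs16 was 18 and 53.9 CPM in vehicle, 172 and 128 CPM at day 3, and 32.7 and 67.4 CPM at day 7 (1.84, adjusted p = 0.0406), 1 of 20 list genes tested, with 0.589% of all genes called. Rgs2 in that cluster was 36.1 and 9.2 CPM in vehicle and 1.44 and 15.4 CPM at day 3, and did not enter the test. The Rgs16 difference in that cluster ranged from 1.29 to 3.09 when single libraries were left out and passed in 2 of 6 such fits. In the other 6 populations none of the list was called at day 3, and none was called for the Cre label in any population.

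The genes with the most similar pattern were found for each member from log2(CPM + 1) over the sums of library and class. Over 60 sums of 12 classes in the CD45 libraries, Ccl21a was closest to Gucy1a2 (r = 0.96), Vtn (0.96) and Prelp (0.95), and Ccl19 to Tagln (0.96), AI838599 (0.95) and Grem1 (0.95). All 6 were highest in the Slc7a11-led cluster and next in the fibroblast-like class, as both chemokines were. Cxcl13 was closest to Enpp2 (0.94), Pcdh15 (0.93) and Sobp (0.92), each highest in follicular dendritic-like cells. Cxcr5 was closest to Cd22 (0.82), Pxk (0.81) and Phtf2 (0.81), and Cxcr4 to Lcp1 (0.8), Dennd4a (0.76) and Tpd52 (0.73). The 3 genes like Cxcr5 were highest in B-like cells and the 3 like Cxcr4 in neutrophil-like cells. Over 72 sums of 15 classes in the CD31 libraries, Cxcl12 was closest to Ly6c1 (0.94), Gask1b (0.93) and Gpihbp1 (0.93), and Ccr7 to Slamf1 (0.87), Bcl2a1d (0.87) and Zc3h12d (0.86). Sums of 1 library share its depth and free RNA, and the classes differ in cell number, so these r values describe the pattern only.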

How the data were processed

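UMI counts per gene and barcode, deposited unfiltered by the authors, came from 12 droplet libraries with a 3′ chemistry, aligned with Cell Ranger 7.0.1 to mm10 per the submitters' processing notes (the deposited matrix headers name Cell Ranger 4, and which version counted the reads is not known here). Barcodes below 1000 UMIs or 500 genes, or above 10% mitochondrial UMIs, were dropped, and 4.78 to 9.31% of barcodes per library were removed by doublet score (in 2 CD31 libraries the removed barcodes had the lower median UMIs). Each fraction was clustered (scanpy 1.11.5, Leiden) without the 7 genes, and clusters were named by hand from markers after they were seen. Counts were summed per library and class with at least 20 cells in each library, and tested with edgeR 4.0.16 (quasi-likelihood F test, TMM, filterByExpr, Cre label plus treatment, 2 residual degrees of freedom) with Benjamini-Hochberg adjustment over all genes of the class. P-values measure the spread between libraries, which may be technical. DESeq2 1.42.0, other filters, doublets kept, free RNA subtracted and each library left out were alternatives. The fibroblast-like class was planned from the CD31 libraries and was taken from the CD45 libraries. The Lepr-high and Slc7a11-led clusters were tested as choices made after seeing the data. The gene list, pairs and partner list were chosen with earlier results of these data known, and partner genes are named where called. The mRFP row of 4 CD31 libraries was left out. Free RNA levels came from barcodes of 1 to 100 UMIs, scaled by marker UMIs in B-like cells.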

Additional observations from a re-analysis of the deposited data

Results flagged for a closer look

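Results were looked at again where the 2 labels or 2 treatments moved a member of the 17 pairs in opposite directions. The limit was set after seeing the values, at a log2 difference of at least 1 both ways with counting intervals that exclude 0, since a looser limit gave many more results. Each value is a log2 ratio of 2 single libraries, and none of these differences between groups was tested. Ccl21a in lymphatic endothelial-like cells differed between the Cre-positive and Cre-negative library by -2.60 in vehicle and by 2.34 at day 3, so that day 3 minus vehicle was 2.72 under the Cre-positive and -2.23 under the Cre-negative label. The Ackr4-high cluster was 70.3% of this class in the Cre-negative and 43.4% in the Cre-positive vehicle library, and 58.1 and 55.4% at day 3. Ptprc was also highest in the same high libraries, at 22.1 CPM in the Cre-negative vehicle and 16.5 CPM in the Cre-positive day 3 library. Ccl19 in dendritic-like cells differed between labels by 2.21 in vehicle and by -1.90 at day 3, and day 3 minus vehicle was 2.80 under the Cre-negative and -1.31 under the Cre-positive label. Its levels of 2.31 to 16.1 CPM were above the expected free RNA level in both vehicle libraries and below it in both day 3 libraries. That expectation used the share found in B-like cells, which held fewer UMIs, and was not measured in dendritic-like cells. Cxcr5 in T-like cells, with 5.32 to 17.8 CPM, differed between day 7 and vehicle by 1.31 under the Cre-positive and by -1.25 under the Cre-negative label.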

How the results depend on the processing

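The labels give no replicate numbers and each group is 1 library, so no pairing by animal was possible. The additive fits compare the Cre labels with treatment taken into account. The fits have 2 residual degrees of freedom and count interaction as error, so a difference that missed the threshold is not shown to be absent, and leaving out a library leaves one arm with a lone library assumed to vary like the others. The number of pairs called for the Cre label (0) was 2 without a filter on low counts and 0 to 3 when single libraries were left out. The number called at day 3 (1) was 5 without that filter and 0 to 5 without single libraries. The number called at day 7 (0) was 1 without the filter (Ccl21a in lymphatic endothelial-like cells), 1 with DESeq2 and 0 to 2 without single libraries. Of the 26 fitted differences printed above, 157 of 172 values under other settings held their direction and side of the threshold, and 119 of 156 did so with single libraries left out. The 172 values left out no single library. Some of them came from a part of the class's cells or from the same class in the CD31 libraries. With all libraries kept 1 turned direction, Cxcl13 in B-like cells at day 3 with free RNA subtracted (-0.47, and 1.85 to 2.57 without single libraries). Without single libraries, 3 others that had not passed the test turned direction: Ccr7 in T-like cells at day 3 ranged from -0.52 to 0.07, and for the Cre label Ccr7 in B-like cells ranged from -0.21 to 0.75 and Cxcr4 in B-like cells from -0.19 to 0.50. The causes were not tested. For 55 further differences, whose fits are not printed and none of which passed the test, 15 of 356 values turned direction under other settings, again with some fits of other cells, and 80 of 330 without single libraries. The count of genes called at day 3 in fibroblast-like cells (1718) ranged from 1577 to 2938 over other settings and from 0 to 2784 without single libraries, in Lepr-high cells (707) from 123 to 2314 and from 1 to 1678, in the Slc7a11-led cluster (43) from 29 to 209 and from 0 to 100, and in HEV-like cells (154) from 122 to 1453 and from 0 to 1320. The mean Ccl19 level in dendritic-like cells was 53.9 CPM with doublets kept and 2.06 CPM with free RNA subtracted.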
